A study of Mus musculus with 4 samples.

Results

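The genes described here are the matrix metalloproteinases (MMPs), the ADAMTS proteases, the ADAMTS-like proteins, the tissue inhibitors of metalloproteinases (TIMPs) and the membrane-anchored inhibitor Reck. Membership in these families was set by gene symbol alone. Of the 19938 genes measured 50 belong to them, namely 22 MMPs, 18 ADAMTS proteases, 5 ADAMTS-like proteins, 4 TIMPs and Reck. Mmp15 and Adamts2 were not analysed here. RNA came from untreated adult mice of the C57BL/6 background with the genotype Wt1-cre;Rosa26ReYFP, and 2 arrays were hybridized with visceral mesothelium of the omentum and 2 with parietal mesothelium teased off the body wall. All samples carry the Wt1-cre driver and the fluorescent reporter, which marks cells that express or once expressed Wt1, so no sample lacks either allele. The RNA was taken from native tissue, and no sorting of cells before extraction is described. The arrays of a tissue are labelled biological replicates, but neither the animals behind each nor any pooling is stated, and p-values here cover array-to-array spread only, which may be technical. Signals are log2 values of Affymetrix Mouse Gene 1.0 ST arrays, and a difference is always visceral minus parietal on that scale. A gene was called when limma gave a Benjamini-Hochberg adjusted p under 0.05 over all genes and the fold was at least 1.5.

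MMPs and ADAMTS proteases are zinc endopeptidases that cut the proteins of the extracellular matrix. MMPs as a family degrade collagens, elastin, fibronectin and basement membrane components, and most are made as latent precursors, some of which furin-type convertases cleave. ADAMTS proteases trim procollagens and cut proteoglycans such as versican and aggrecan, while ADAMTS-like proteins share their accessory domains without the protease domain and bind the matrix. TIMPs and Reck hold these enzymes in check. In the peritoneum, matrix turnover by such enzymes accompanies wound repair, adhesion formation and the passage of cells through the mesothelial layer.

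Of the 50 genes, 16 were higher in visceral mesothelium and 2 in parietal, and 32 were not called. These calls depended on the test. The methods' one-way ANOVA with Benjamini-Hochberg adjustment, rerun here on 1 row per gene, called 0 of the 50 and 0 of all 19938 genes. The study itself reported genes differing in both directions under the test of that name, a result this rerun did not reproduce. Tested against a fold of 1.5, limma called 5 and 1 of the 50, against 393 and 331 of all genes. The 16 made up 32.0% of the genes, against 5.22% of all genes tested that were called higher in visceral mesothelium. The 2 genes higher in parietal mesothelium, Timp1 and Mmp17, made up 4.0%, close to the 4.39% of all genes. In either direction 36.0% of the genes were called, against 9.6% of all genes. The median difference of the 50 genes was 0.00, as was that of all genes. Folds of the 16 genes ranged from 1.51 to 3.47. The arrays of the tissues did not overlap for 32 of the 50 genes, but this held for 56.3% of all genes as well. Of the called genes, 10 are among the examples of differing genes that the study itself listed from these arrays, 9 of them higher in visceral mesothelium, and their direction is not independent evidence. Among the 40 genes outside that list, 7 were higher in visceral mesothelium and 1 in parietal, or 17.5% and 2.5%.

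The families differed in their counts. Of the 18 ADAMTS proteases, 10 were called, each with more signal in visceral mesothelium, and the median difference was 0.62. Of the 22 MMPs, 5 were higher in visceral mesothelium and 1 in parietal, and the median was -0.01. Of the 5 ADAMTS-like proteins 1 was higher in visceral mesothelium, and of the 5 inhibitors 1 was higher in parietal mesothelium. Calls with more visceral signal made up 55.6% of the ADAMTS proteases and 22.7% of the MMPs, against 5.22% of all genes. Those with more parietal signal made up 0.0% and 4.5%, against 4.39%. Among the 50 genes, 28 had a mean above the median over genes of 7.73, and 11 of them were not called. In the other 22, 21 were not called. Limma run on the 9969 genes above that median alone called 15 and 2 of the 28 as higher in visceral and parietal mesothelium. Of all 9969 it called 747 and 655. The 28 include 13 of the 18 ADAMTS proteases but 8 of the 22 MMPs. Family counts were not adjusted for signal level, and differences between families were not tested.

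**Figure D1:**
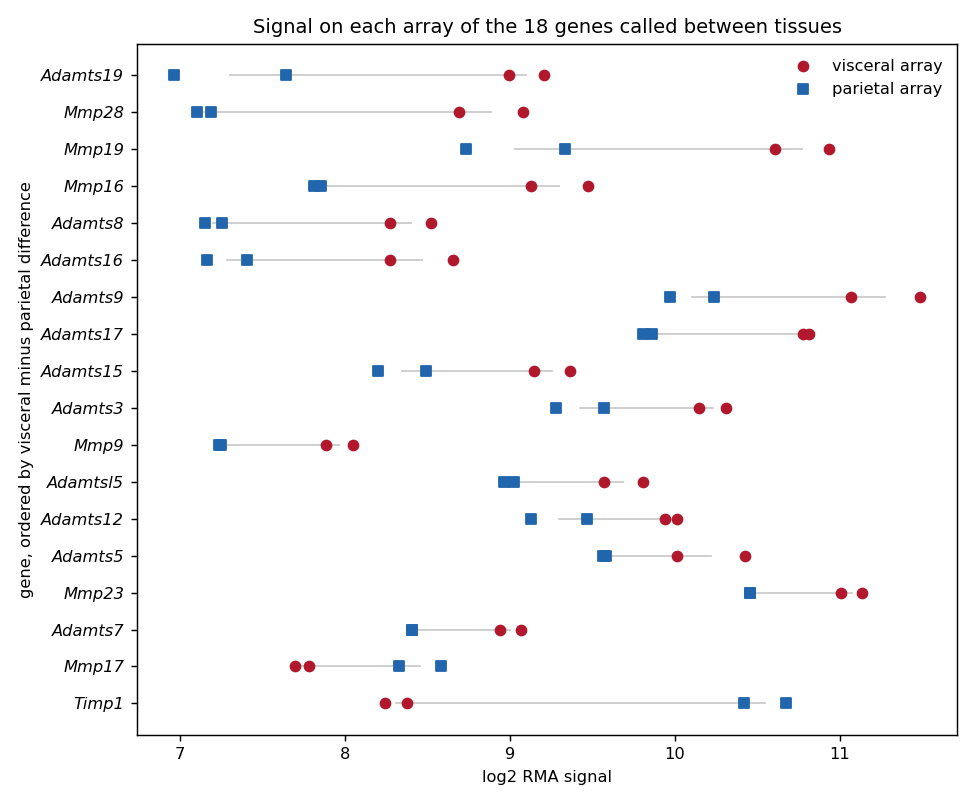
Log2 RMA signal (x axis) of the 18 called genes (y axis), ordered by difference. Each circle is a visceral and each square a parietal array, and grey lines join the tissue means; no gene has overlapping tissues, and Mmp17 and Timp1, at the bottom, are the 2 genes with the squares on the right.

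The tissues also differed in markers of the cells they hold, and in RNA of unsorted tissue fewer cells of a type and less RNA per cell cannot be told apart. By the study's account, judged by the reporter, nearly all of the input was mesothelial. Mesothelial markers were present in both, with Wt1, which drives the reporter, at 12.26 and 12.39 on the visceral and 11.54 and 11.42 on the parietal arrays. Mesothelin, Msln, was lower in visceral mesothelium, at 10.70 and 10.82 against 12.96 and 12.83. Among 15 mesothelial markers, 8 had more signal in parietal mesothelium and 1, Wt1, had more in visceral mesothelium, and their summed linear signal was 54400 to 56375 on the visceral and 84681 to 87853 on the parietal arrays. Of 15 macrophage and dendritic cell markers, 13, such as Mrc1 (2.69) and C1qc (2.94), were higher in visceral mesothelium, with sums of 30507 to 32143 against 6460 to 7493. Of 10 mast cell markers, 8 were higher in visceral mesothelium, among them Cpa3 (4.63), with sums of 7257 to 9329 against 1141 to 1257. All 15 skeletal muscle markers were higher in parietal mesothelium, with sums of 74218 to 95101 against 2318 to 2375. Of 9 measured B cell markers 4, such as Bank1 (1.99), of 9 T and NK cell markers 2, Cd3g (0.72) and Il7r (1.26), and of 12 neutrophil markers 1, S100a9 (0.67), were higher in visceral mesothelium. Their sums were 1628 to 2035 against 751 to 794, 848 to 972 against 707 to 709, and 2676 to 3462 against 1195 to 1875. Smooth muscle and pericyte markers were higher in visceral mesothelium for 5, such as Myh11 (2.67), and in parietal mesothelium for 2 of 11 genes, with sums of 9178 to 11661 against 7892 to 9106. Fibroblast markers were higher in visceral mesothelium for 3, such as Mfap5 (1.16), and in parietal mesothelium for 5, such as Pi16 (-1.24), of 12 genes. Their sums were 64301 to 64500 against 55669 to 62391. Among 12 endothelial markers 1, Lyve1 (3.37), was higher in visceral mesothelium and 2, such as Esam (-0.69), in parietal. Their sums were 8224 to 8612 against 5294 to 5523. Lyve1 alone read 12.13 and 12.17 against 8.77 and 8.78 and weighed heavily in the visceral sums, which therefore do not speak for the other endothelial markers. Among 9 measured adipocyte markers 1, Plin4 (-1.33), was higher in parietal mesothelium, with sums of 1503 to 1727 against 1913 to 2824. The fibroblast list shares Col1a1, Col3a1, Dcn and Mfap5, and the endothelial list Vwf, with the matrix lists given at the end. The part of these cells in the protease differences was not tested, for any of the results that follow.

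Among the MMPs, the epilysin Mmp28, the secreted protease Mmp19 and the membrane-type protease Mmp16 had the largest visceral excess. Mmp28, an MMP of epithelia such as the epidermis, read 8.69 and 9.08 on the visceral arrays and 7.19 and 7.10 on the parietal arrays. Its signal was 3.34-fold higher in visceral mesothelium (difference 1.74, standard error 0.14, limma adjusted p = 0.00118), and every visceral value lay well above both parietal ones. Mmp28 is not among the genes the study listed. Mmp19, which cleaves components of basement membranes, read 10.93 and 10.61 against 9.33 and 8.74, a difference of 1.74 (standard error 0.22, adjusted p = 0.00518). Its parietal arrays had an SD of 0.42, the widest within-tissue spread among the called MMPs, and both lay below the visceral arrays. Mmp16, also called MT3-MMP, is anchored in the cell membrane and activates the precursor of gelatinase A. It read 9.13 and 9.47 against 7.85 and 7.81, a 2.77-fold excess in visceral mesothelium (difference 1.47, standard error 0.13, adjusted p = 0.0015).

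Smaller differences were found for Mmp9, Mmp23 and Mmp17. Gelatinase B, Mmp9, which digests denatured collagen and is made in quantity by neutrophils and macrophages, read 8.05 and 7.88 on the visceral against 7.24 and 7.25 on the parietal arrays (difference 0.72, standard error 0.09, adjusted p = 0.00579). The visceral values lay above both parietal ones, and Mmp9 was the only called gene whose mean was not above the median over genes. The neutrophil and macrophage sums given above were also higher on the visceral arrays. However, 1 of the 12 neutrophil markers was called, and another, Lcn2, was the 1 with a mean above that median. Lcn2 read 10.86 and 10.59 against 8.42 and 9.94, was not called, and weighed heavily in the visceral neutrophil sums. The part of either cell type in the Mmp9 signal was not tested. Mmp23, a membrane-bound family member released by cleavage, read 11.01 and 11.14 against 10.45 and 10.46 (difference 0.62, standard error 0.09, adjusted p = 0.00815). Without visceral replicate 2 its difference was 0.55 and it was no longer called, the fold being under 1.5. Mmp17, or MT4-MMP, which is tethered to the membrane by a lipid anchor, was the single protease called higher in parietal mesothelium. It read 7.78 and 7.70 against 8.58 and 8.33 (difference -0.71, standard error 0.11, adjusted p = 0.0115), and without visceral replicate 2 it was not called (-0.67, adjusted p = 0.0598).

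Several widely studied MMPs did not pass. Gelatinase A, Mmp2, read 11.74 and 11.09 in visceral and 11.78 and 11.47 in parietal mesothelium, and the tissues overlapped (difference -0.21, adjusted p = 0.624 from limma). Mmp14, or MT1-MMP, a collagenase of the cell surface and the main activator of Mmp2, was close between the tissues (difference 0.09, standard error 0.09, adjusted p = 0.577). The membrane-type Mmp24 had an adjusted p of 0.03 but a fold of 1.36, below the minimum, and Mmp25 differed by -0.01. The stromelysin Mmp11 differed by -0.29 (adjusted p = 0.166). Macrophage elastase, Mmp12, read 5.27 and 5.66 against 5.65 and 5.52, with overlapping arrays that all lay below the median over genes of 7.73. How its signal relates to the macrophage and dendritic cell markers was not tested.

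Mmp12 is one of 10 MMPs that lie side by side on mouse chromosome 9, with no other protein-coding gene between neighbours in the RefSeq table of the GRCm38.p6 assembly. In the order of that table they are Mmp13, Mmp12, Mmp1b, Mmp3, Mmp1a, Mmp10, Mmp8, Mmp27, Mmp20 and Mmp7. They include all 4 collagenases of the group, stromelysins, matrilysin and the tooth enamel protease Mmp20. None of the 10 was called, and their differences ran from -0.34 for Mmp3 to 0.19 for Mmp8. Mmp3, stromelysin 1, read 6.27 and 6.36 against 6.47 and 6.84 (adjusted p = 0.189 from limma). Every value of the 10 genes on every array lay between 4.49 and 6.84, below the median over genes of 7.73, and RMA values carry no detection call. Mmp1a and Mmp1b are close paralogs, and their probes may not tell them apart.

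Many of these clustered genes share a short element just upstream of the gene start, the heptamer TGAGTCA, the textbook binding sequence of the factor AP-1. It was searched on both strands, as TGAGTCA or TGACTCA, which are reverse complements, in the RefSeq promoter windows of 250 bases before and 50 after the start (GRCm38.p6). Of the 50 genes, 35 had a window in that table, some of them more than 1, and 7 of 38 windows held the heptamer, or 18.4%, against 5.2% of 32851 windows of all genes. All 7 belong to the chromosome 9 cluster. Mmp8, Mmp27 and Mmp20 of the cluster did not hold it, and no other motif was searched. The sites are shown so that their surroundings can be compared, read 5′ to 3′ along the gene with 11 bases on either side and the heptamer in capitals.
Mmp13, chr9:7272468-7272496, plus strand: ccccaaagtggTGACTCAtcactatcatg
Mmp12, chr9:7347319-7347347, plus strand: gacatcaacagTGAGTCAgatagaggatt
Mmp1b, chr9:7388102-7388130, minus strand: gttacaaagccTGAGTCAtatagcctctg
Mmp3, chr9:7445765-7445793, plus strand: ggaagcaattaTGAGTCAgttttcgggtg
Mmp1a, chr9:7464057-7464085, plus strand: gttgtcaaccaTGAGTCAcatagcctctg
Mmp10, chr9:7502268-7502296, plus strand: tagcacccatgTGAGTCAtgcttagtgac
Mmp7, chr9:7692016-7692044, plus strand: aagtgtgcaaaTGAGTCAcctatttccac

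Counted from the gene start, the heptamer began at -35 in Mmp13 and at -93 in Mmp1b, with the other sites in between. Mmp12 and Mmp7 each have 2 windows in the table, and 1 of them held it. Of the 18 called genes, 8 had a window, and none of their 9 windows held the heptamer. Over the 250 upstream bases, G and C made up 37.2% to 53.2% of the cluster's windows (median 40.2%), 54.4% to 78.0% of those of the called genes (median 62.0%) and 53.6% to 80.0% of those of the 17 other genes with a window (median 65.6%). The low share was thus a trait of the cluster, and the called genes and the other uncalled genes overlapped. A match describes letters in a window and says nothing of binding in these tissues, and 10 called genes were not searched.

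**Figure D2:**
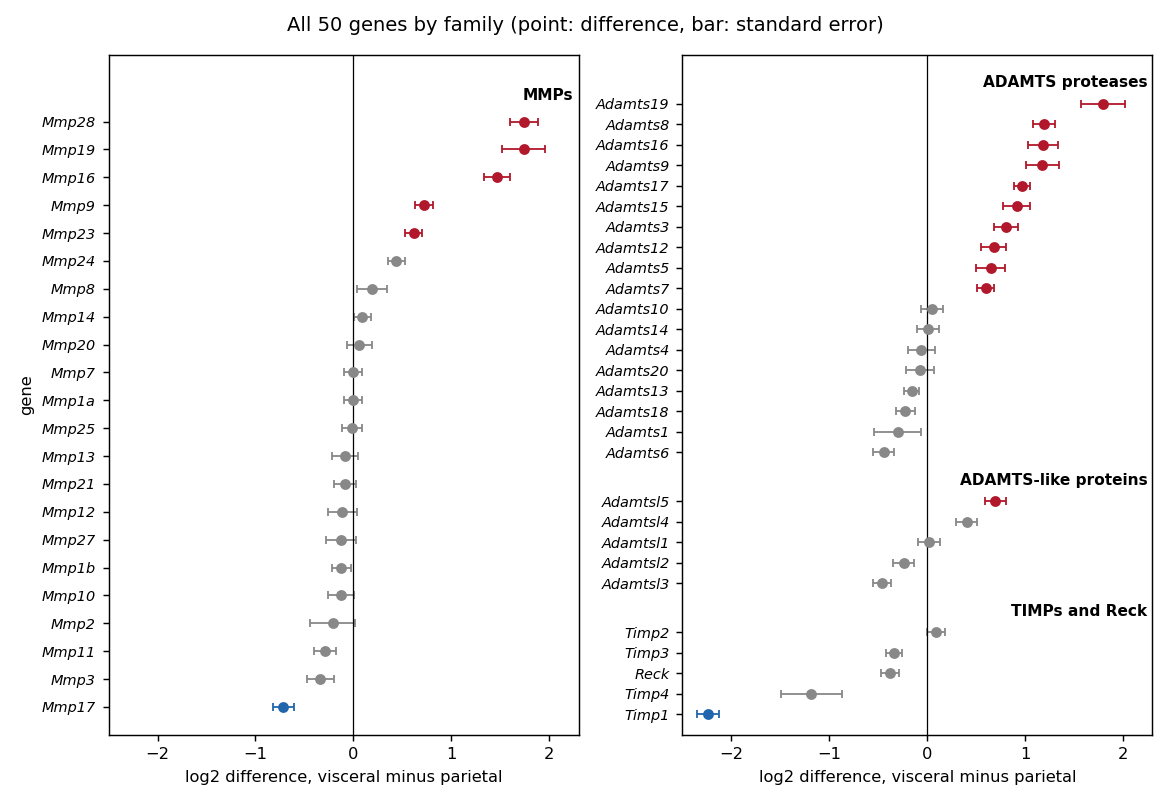
Log2 difference, visceral minus parietal (x axis), of all 50 genes (y axis), the MMPs on the left and the ADAMTS proteases, ADAMTS-like proteins, TIMPs and Reck on the right. Points are differences and bars limma standard errors, red where called higher in visceral and blue in parietal mesothelium; 10 of 18 ADAMTS proteases are red and none is blue.

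Among the ADAMTS proteases, 7 are known to cut proteoglycans, and 4 of these were higher in visceral mesothelium. Adamts8 read 8.52 and 8.28 on the visceral and 7.15 and 7.26 on the parietal arrays, a 2.29-fold excess (difference 1.20, standard error 0.11, limma adjusted p = 0.00184). Adamts9, which cuts versican and aggrecan, read 11.49 and 11.07 against 10.24 and 9.97 (difference 1.17, standard error 0.17, adjusted p = 0.00838). Adamts15, a versican-cleaving enzyme, read 9.37 and 9.15 against 8.49 and 8.20 (difference 0.91, standard error 0.13, adjusted p = 0.00915). In these 3 genes both visceral arrays stood above both parietal arrays, and the calls held without any single array. Adamts5, aggrecanase 2, read 10.43 and 10.01 against 9.57 and 9.58 (difference 0.65, standard error 0.15, adjusted p = 0.0396). Its call was the weakest of the 18, and was lost without visceral replicate 1 (0.44, adjusted p = 0.0666), without parietal replicate 1 (0.64, adjusted p = 0.0721) and without parietal replicate 2 (0.65, adjusted p = 0.0709).

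The remaining proteoglycan-cutting enzymes were not called. Aggrecanase 1, Adamts4, differed by -0.06 and Adamts20 by -0.07, with overlapping arrays in both. Adamts1, which is induced by inflammation and ovulation, read 9.04 and 9.05 in visceral but 9.73 and 8.96 in parietal mesothelium (difference -0.30, adjusted p = 0.494 from limma). The parietal arrays disagreed more than the tissues did. Without parietal replicate 2 the difference was -0.68 and was called (adjusted p = 0.0146), and without parietal replicate 1 it was 0.080. Adamts1 and Adamts5 are direct neighbours on chromosome 16 in the RefSeq table, and Adamts15 and Adamts8 on chromosome 9. The latter pair were both higher in visceral mesothelium, at 0.91 and 1.20, while of the former pair only Adamts5 was called.

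Adamts3, a procollagen N-proteinase that also acts on the precursor of VEGF-C, was higher in visceral mesothelium, at 10.31 and 10.15 against 9.57 and 9.28 (difference 0.80, standard error 0.13, limma adjusted p = 0.0119). Both visceral values were above both parietal ones, but the call was lost without visceral replicate 1 (0.72, adjusted p = 0.0573). Its relative Adamts14, which has the same activity, read 7.65 and 7.82 against 7.83 and 7.62 and did not pass (difference 0.01, adjusted p = 0.968).

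With 1 row used per gene, the other ADAMTS proteases include the gene with the largest visceral excess of all 50. A row of Adamts17 that was not used differed by more, as given below. Adamts19, whose substrate is little known and which is required for normal heart valves, read 9.21 and 8.99 on the visceral and 7.65 and 6.97 on the parietal arrays, a 3.47-fold excess (difference 1.79, standard error 0.23, limma adjusted p = 0.00541). Its sequence relative Adamts17, linked to short stature and eye lens defects, read 10.81 and 10.78 against 9.81 and 9.86 (difference 0.96, standard error 0.08, adjusted p = 0.00129). Arrays of a tissue were close together for Adamts17 and wider apart for Adamts19, without overlap in either. Adamts16, a gene of kidney and gonad, read 8.66 and 8.28 against 7.41 and 7.16 (difference 1.18, standard error 0.16, adjusted p = 0.00634), whereas its relative Adamts18 differed by -0.22 and was not called (adjusted p = 0.213).

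Adamts7 and Adamts12 are relatives that cleave the cartilage protein COMP, and both had small visceral excesses. Adamts7 read 8.94 and 9.07 against 8.41 and 8.41 (difference 0.60, standard error 0.09, limma adjusted p = 0.00906). Its fold of 1.51 lay at the minimum, and it was not called without visceral replicate 2 (0.54) or under any of the 3 renormalizations (0.56 to 0.58). Adamts12 read 9.94 and 10.01 against 9.47 and 9.13 (difference 0.68, standard error 0.13, adjusted p = 0.0232). Its call was lost without visceral replicate 1 (adjusted p = 0.0741), without visceral replicate 2 (adjusted p = 0.101) and without parietal replicate 2 (adjusted p = 0.055). Adamts13, which cleaves von Willebrand factor, differed by -0.16 and Adamts10, a protein of fibrillin microfibrils, by 0.05, and neither was called. Adamts6, its relative, had a difference of -0.45 with an adjusted p of 0.0493 but a fold of 1.36, under the minimum.

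Adamts3, Adamts9 and Adamts17 are each read by several rows of the array, and Adamtsl1 by a pair. The row with the highest mean over the 4 arrays was used for the values above. For Adamts3, both visceral arrays were above both parietal arrays in 16 of 16 rows, and 11 rows were called when every row was tested on its own, with differences of 0.48 to 1.11. For Adamts9 this held in 6 of 6 rows, of which 5 were called, with differences of 0.79 to 1.23. For Adamts17 all 5 rows were called, but their differences spread from 0.59 to 2.38, or from 1.51-fold to 5.19-fold. The row used lay at 0.96, so its size depended on the choice of row more than that of Adamts3 or Adamts9 did. The largest row difference of Adamts17, 2.38, exceeded the 1.79 of Adamts19 and, in size, the -2.24 of Timp1. Rows of one gene are read from the same RNA and are not replicates. The 2 rows of Adamtsl1 differed by 0.02 and -0.28, and neither was called.

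**Figure D3:**
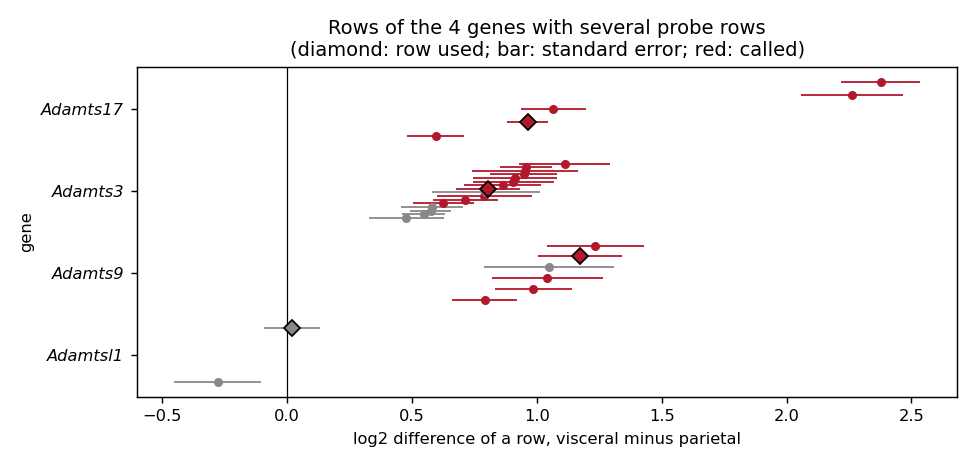
Log2 difference, visceral minus parietal (x axis), of each probe row of the 4 genes with several rows (y axis). Points are rows with limma standard errors, diamonds the rows used and red the called rows; every row of Adamts3, Adamts9 and Adamts17 lies to the right of 0, and 2 rows of Adamts17 lie beyond 2.

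Of the ADAMTS-like proteins, Adamtsl5, which binds fibrillin microfibrils, was higher in visceral mesothelium. It read 9.57 and 9.81 against 8.96 and 9.02 (difference 0.69, standard error 0.11, limma adjusted p = 0.0112), and without visceral replicate 2 its fold fell under the minimum (0.57). Adamtsl4, which supports the suspension of the eye lens, differed by 0.40 (adjusted p = 0.0704). Adamtsl3 had a difference of -0.46 and an adjusted p of 0.0253, with a fold of 1.38 that did not reach the minimum. Adamtsl2, a regulator of TGF-beta availability, differed by -0.24 and Adamtsl1 by 0.02, and neither was called.

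Among the inhibitors was Timp1, a secreted inhibitor of most MMPs that is induced in inflammation and fibrosis. By the row used for each gene, it had the largest difference of all 50. It read 8.24 and 8.38 on the visceral and 10.67 and 10.42 on the parietal arrays, 4.72-fold higher in parietal mesothelium (difference -2.24, standard error 0.12, limma adjusted p = 0.000263). The gap between the tissues was many times the spread within them, and it stayed between -2.36 and -2.11 when any array was left out. Timp4, an inhibitor of restricted tissue range that is known from heart and muscle, read 5.85 and 5.68 against 6.45 and 7.45. Both parietal arrays were above both visceral ones but disagreed with each other, and the difference of -1.18 did not pass (adjusted p = 0.0626). It was called without parietal replicate 1 (-1.68, adjusted p = 0.000207) and without parietal replicate 2 (-0.68, adjusted p = 0.0201). The summed skeletal muscle signal was also the higher of the parietal pair on replicate 2, 95101 against 74218, and its part in the Timp4 signal was not tested.

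Timp3, which is bound to the matrix and also inhibits ADAMTS proteases, read 11.93 and 11.91 against 12.29 and 12.23. Its difference of -0.34 had an adjusted p of 0.0461 from limma but a fold of 1.27, under the minimum. Reck, which restrains several MMPs at the cell surface, read 10.37 and 10.44 against 10.71 and 10.86 (difference -0.38, standard error 0.09, adjusted p = 0.0501). Arrays of the tissues did not overlap for either gene. Timp2, which both inhibits Mmp2 and takes part in its activation by Mmp14, read 12.79 and 12.91 against 12.69 and 12.82 and overlapped between tissues (difference 0.09, adjusted p = 0.622). Thus 4 of the 5 inhibitors had a negative difference, of which that of Timp1 was called, and 9885 of all 19938 genes had one. Timp4, 1 of the 4, had a mean signal that was not above the median over genes.

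Other genes that act with these proteases or are cut by them were taken from 8 lists, with 95 genes measured in all. Of these 12 were higher in visceral mesothelium and 15 in parietal, or 12.6% and 15.8%, against 5.22% and 4.39% of all genes. The lists were chosen with earlier results of these data known, so these shares are descriptive only. Both plasminogen activators, which generate plasmin, an activator of several MMPs, were higher in visceral mesothelium. Plau read 10.28 and 10.61 against 8.10 and 7.86 (difference 2.46) and Plat 11.79 and 11.75 against 9.73 and 9.72 (difference 2.04), while the urokinase receptor Plaur differed by 0.43 and was not called (adjusted p = 0.124 from limma). The other 5 measured genes of plasminogen activation were not called either. Of 7 measured proprotein convertases, which cleave precursors, 1 was called, Pcsk5, higher in parietal mesothelium (difference -1.34), and Furin differed by -0.50 (adjusted p = 0.0178) with a fold of 1.42. Of 12 ADAM proteases, the membrane-bound relatives that shed surface proteins, 1 was called, Adam22 (1.02), which lacks protease activity and acts at synapses. Of 7 astacins and procollagen C-proteinase enhancers, 1 was called, the enhancer Pcolce (-0.67).

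Lysosomal proteases went in both directions. Of 15 cathepsins and cystatins, 3 were higher in visceral mesothelium and 1 in parietal. Ctss, a protease of antigen-presenting cells, differed by 2.02 and Ctsc, which activates serine proteases of granules, by 1.43. Ctsk, a collagen-degrading cathepsin of osteoclasts and fibroblasts, read 8.20 and 8.15 against 10.23 and 9.84 (difference -1.86). Among 13 measured surface regulators, clearance receptors and related proteoglycans, 2 were higher in visceral mesothelium and 3 in parietal. The testican Spock3 differed by 2.27 and its relative Spock2 by -2.55, and the collagen uptake receptor Mrc2 by -0.91. The list also holds Cd44, which is the hyaluronan receptor and is among those higher in visceral mesothelium.

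Of 22 matrix substrates, 2 were higher in visceral mesothelium and 6 in parietal, and the median difference was -0.18. Fibronectin, Fn1, read 13.24 and 12.94 against 11.35 and 11.29 (difference 1.77), whereas elastin, Eln, read 10.37 and 10.34 against 12.72 and 12.20 (difference -2.10) and Thbs2 differed by -2.93. The substrates of the proteases described above are given next, named for that reason after their values were seen. Versican, Vcan, read 9.88 and 9.82 against 9.48 and 9.09 and did not pass (difference 0.57, adjusted p = 0.053 from limma), and aggrecan, Acan, differed by -0.06. The type I procollagen chains, cut by N-proteinases, were higher in parietal mesothelium, with differences of -0.82 for Col1a1 and -0.85 for Col1a2, while Comp differed by -0.17 and Vwf by -0.01 and neither was called. Of 11 measured fibrillin microfibril genes, 2 were higher in visceral mesothelium, Emilin2 (2.59) and Mfap5 (1.16). A further 3 were higher in parietal mesothelium, among them Mfap4 (-2.78). Fibroblasts make many of these proteins, and of the 12 fibroblast markers 3 were higher in visceral mesothelium and 5 in parietal.

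**Figure D4:**
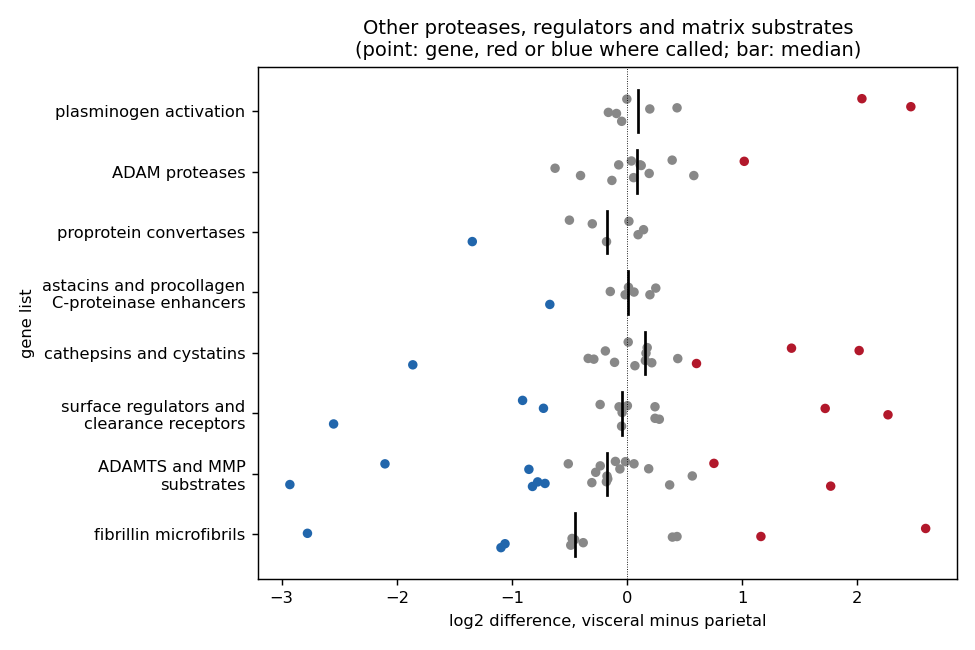
Log2 difference, visceral minus parietal (x axis), of the genes of 8 lists of other proteases, regulators and substrates (y axis). Each point is a gene, red where called higher in visceral and blue in parietal mesothelium, and black bars are list medians; the plasminogen activators Plau and Plat are the 2 red points of the top list, and 6 of 22 substrates are blue.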

How the data were processed

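The deposited values are log2 signals that the authors made from Affymetrix Mouse Gene 1.0 ST arrays by RMA normalization, with Partek 6.6 named in the submitters' processing notes. The array library version was not stated there. No further normalization was applied to these log2 values, which had array medians of 7.38 to 7.41 over 35556 rows. Rows were named through a platform annotation, with gene identifiers checked against a RefSeq table of GRCm38.p6. 21789 rows had 1 symbol, of which 21698 were found there, 1621 several and 12146 none. Rows with several symbols were not used. For each of 19938 genes the row with the highest mean was taken. The 50 genes of this report had 75 rows, and 4 of them more than 1.

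A limma 3.58.1 model (R 4.3.3) of tissue was fitted to all 4 arrays without a block, and its script was first tested on simulated data. Alternatives were other thresholds, tests, normalizations, filters and row choices, the replicate number as a block, and each array left out. Which genes belong to the families described was set by gene symbol alone, not by signal. The choice of families to describe, and that of the further lists, was made with earlier results of these data known. All called genes were given with every array, together with the inhibitors, genes whose call hinged on 1 array, and up to 3 genes of each further list (2 for cell types) with the lowest adjusted p. Wt1, Lcn2, Plaur, Furin, Cd44 and the substrates named as such were named outside that rule, after their values were seen. So were uncalled family members such as Mmp2, Mmp3, Mmp12, Mmp14 and Adamts14. A search for protein motifs was planned but not run, as no protein sequences were used here. The number of arrays limits the precision, and no scan date was used.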

Additional observations from a re-analysis of the deposited data

How the results depend on the processing

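The methods' test, a one-way ANOVA of the tissues adjusted by Benjamini-Hochberg, called 0 of the 50 genes in either direction, 0 of the further protease and substrate genes and 0 of all 19938 genes (lowest adjusted p of the 50, 0.121). Without adjustment, at p under 0.05 and a fold of 1.5, it gave 14 and 2 of the 50 (876 and 706 of all genes) higher in visceral and parietal mesothelium. With a fold of at least 2, limma called 7 and 1 of the 50 genes, against 521 and 457 of all 19938 genes. Of the further genes it called 10 as higher in visceral and 8 as higher in parietal mesothelium. Tested against a fold of 1.5 it called 5 and 1 of the 50, against 393 and 331 of all genes. Of the further genes 10 and 7 were called. At an adjusted p under 0.01, 12 and 1 of the 50 were called, against 765 and 613 of all genes. With no fold minimum 17 and 5 were, against 1574 and 1267. Leaving out each array in turn gave 12 to 15 genes higher in visceral and 1 to 4 in parietal mesothelium. It was 1 without visceral replicate 2 and 4 without parietal replicate 2. Of the 18 called genes, 11 were called in every such fit, 10 higher in visceral mesothelium, and Timp1. The lone array of a tissue was then assumed to vary like the others. The difference of Adamts1 ranged from -0.68 without parietal replicate 2 to 0.080, the opposite direction, without parietal replicate 1. The replicate numbers are not stated to pair the samples, and deviations of same-numbered arrays correlated at 0.36 over genes. With the number as a replicate block, the same 18 genes were called, 16 and 2. The other alternatives moved no count by over 1.5 times, and renormalization moved the median difference of all genes by at most 0.02.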
